A study of Mus musculus with 12 samples.

Results

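The type I interferon stimulated genes described here are 36 antiviral genes, chosen by symbol among the 35999 gene rows of the count table, and all 36 had enough counts to be tested among 17940 tested genes. RNA was sequenced from AB1-HA tumours, formed by a mouse mesothelioma cell line engineered to express the haemagglutinin of influenza virus and grown under the skin of male BALB/c mice of 8 to 10 weeks. The 6 control tumours came from mice given PBS, and the other 6 from mice given 100 µg of a monoclonal antibody to CD4. Both were given on days -3, 0 and 7 counted from inoculation, and all tumours were taken on day 9. Every tumour derives from the same line, so tumours differ in host and treatment but not in line. The labels name tumours and not animals, so p-values measure the spread between these tumours.

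Type I interferons, the alpha and beta families, are secreted when cells sense viral or misplaced self nucleic acid. They bind the receptor chains Ifnar1 and Ifnar2, and the kinases Jak1 and Tyk2 then activate a complex that holds Stat2 and Irf9 and switches on genes that carry an interferon stimulated response element near their start. In tumours the program is known from cancer cells, macrophages and dendritic cells alike. Interferon gamma, made by T and NK cells, has a receptor of its own and induces an overlapping set of genes. CD4 T cells are a source of interferon gamma and of help to other cells, and the comparison asked how tumours grown without them differ.

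The stretches of DNA before 6 of the genes are printed because they hold this element and belong to paralog pairs or to genes whose levels are described in full. Slfn5, also described in full, had 1 match, but its stretch lies inside the annotated gene and is not printed. The search used GAAA, 2 bases of any kind and GAAA again, on both strands, in the 250 bases before each RefSeq start (GRCm38.p6), with overlapping matches counted. Of the 36 genes, 27 matched the RefSeq promoter table, and Oas2, Mx1, Mx2, Dhx58, Zbp1, Usp18, Rtp4, Ifi27 and Ifi27l2a did not. Of these, 12 (44.4%) held a match, against 3.46% of all 27025 genes of the table searched in the same way. The letters TTC, 3 bases of any kind and GAA, the core of the gamma activated sequence, were in 5 of the 27 (18.5%), against 8.13% of all genes. A match is a description of the sequence and was not tested for binding. Each stretch runs 5′ to 3′ on the strand of its gene and ends at the base before the start, and capitals mark the matches.
Isg15: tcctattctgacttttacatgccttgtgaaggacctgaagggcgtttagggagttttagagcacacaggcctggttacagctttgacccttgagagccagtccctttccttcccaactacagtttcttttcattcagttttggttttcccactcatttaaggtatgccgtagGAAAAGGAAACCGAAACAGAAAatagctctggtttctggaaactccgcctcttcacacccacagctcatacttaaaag
Ifit3: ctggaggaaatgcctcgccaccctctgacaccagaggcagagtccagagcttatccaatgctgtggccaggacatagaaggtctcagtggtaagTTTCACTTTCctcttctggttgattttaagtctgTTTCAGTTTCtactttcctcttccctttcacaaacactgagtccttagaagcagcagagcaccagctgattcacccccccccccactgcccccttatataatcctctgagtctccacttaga
Ifit3b: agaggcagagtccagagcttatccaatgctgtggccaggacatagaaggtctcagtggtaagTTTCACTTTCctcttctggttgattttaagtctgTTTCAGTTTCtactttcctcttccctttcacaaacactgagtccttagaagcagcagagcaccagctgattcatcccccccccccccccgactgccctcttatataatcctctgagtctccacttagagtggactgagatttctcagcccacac
Oas1a: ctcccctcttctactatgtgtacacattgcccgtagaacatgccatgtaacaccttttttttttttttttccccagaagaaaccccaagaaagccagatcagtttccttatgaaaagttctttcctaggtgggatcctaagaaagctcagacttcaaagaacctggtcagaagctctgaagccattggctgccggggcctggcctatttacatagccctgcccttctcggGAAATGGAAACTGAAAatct
Oas1g: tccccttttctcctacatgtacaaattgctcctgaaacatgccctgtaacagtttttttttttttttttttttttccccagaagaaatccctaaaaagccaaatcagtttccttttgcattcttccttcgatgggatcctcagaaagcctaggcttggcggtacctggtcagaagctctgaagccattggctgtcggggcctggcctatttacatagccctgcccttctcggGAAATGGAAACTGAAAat
Stat2: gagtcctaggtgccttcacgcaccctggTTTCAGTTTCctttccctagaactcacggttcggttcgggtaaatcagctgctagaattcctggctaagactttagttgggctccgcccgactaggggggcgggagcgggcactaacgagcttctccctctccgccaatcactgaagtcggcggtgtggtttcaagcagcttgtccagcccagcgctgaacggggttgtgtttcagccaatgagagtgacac

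Isg15 (chr4:156200819-156201068, minus strand) had 3 overlapping matches in tandem, the outermost beginning 78 bases before the start. Ifit3 (chr19:34583279-34583528) and its neighbour Ifit3b (chr19:34607707-34607956), both on the plus strand, each had 2 matches 34 bases apart. Lined up on them, 188 of 218 bases (86.2%) of these stretches were identical. Oas1a (chr5:120907526-120907775) and Oas1g (chr5:120887614-120887863), on the minus strand, each had 2 overlapping matches directly before the start, the first base 20 and 18 bases away. Over 248 bases lined up on the matches without gaps, 63.7% were identical in this pair. Stat2 (chr10:128270248-128270497, plus strand) had 1 match, 222 bases before the start. For Ifit3b and Stat2 the bases after the RefSeq start were not found in a GENCODE M21 transcript, so the start itself is less certain. The Ifit genes lie on chromosome 19 within the interval 34550694 to 34650009, and Oas1a, Oas1g, Oas2 and Oas3 on chromosome 5 within 120730333 to 120907521 (GENCODE M21).

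None of the 36 genes passed the test between anti-CD4 and PBS tumours, while 947 of all 17940 tested genes (5.28%) did, 2.95% higher and 2.33% lower (edgeR quasi-likelihood test, Benjamini-Hochberg adjusted p under 0.05). The higher calls made up 55.9% here, under TMM, but 35.5% when libraries were scaled by their upper quartile, which called no member either. At an unadjusted p under 0.05 there were 3 members higher and 3 lower, 6 of 36, against 28.0% of all genes. The members had 18 positive and 18 negative log2 fold changes, with a median of -0.01, and the median over all genes was -0.0003. Anti-CD4 3 held the highest level of 27 members, so leaving it out by itself lowers their estimates. Without this tumour alone there were 11 positive and 25 negative, with a median of -0.10. At an unadjusted p under 0.05, 2 members were then higher and 11 lower, with no call. Of all 18137 genes tested without this tumour, 2251 were higher and 2521 lower at that limit. With all tumours kept, no member separated the groups, whereas 3.12% of all genes did, 1.93% higher and 1.19% lower in anti-CD4 tumours. DESeq2, at 13.9% of all genes called, called Mx1 lower and Ifi27l2a higher. Limma voom with sample weights, at 33.7%, called 5 members lower (Oas2, Mx1, Mx2, Zbp1 and Xaf1) and Ifi27l2a higher.

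The intervals give the size of difference the data allow. The 95% interval of the log2 fold change lay within 2-fold in either direction for 35 of the 36 members and within 1.5-fold for 27. Zbp1, with the widest interval (-1.17 to 0.27), was the exception to the first count. Standard errors ran from 0.06 for Eif2ak2 to 0.33 for Zbp1. In bulk tissue, fewer cells of a type and less RNA per cell cannot be told apart, and this holds for each value below.

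**Figure D1:**
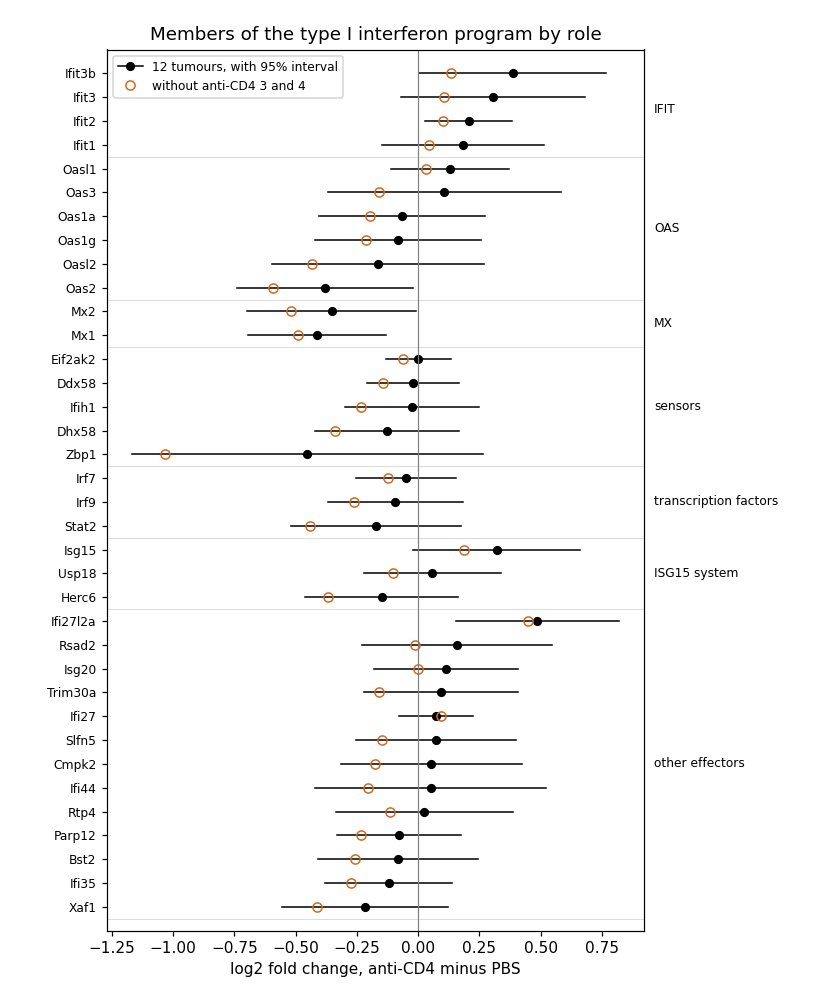
Log2 fold change of each of the 36 members (anti-CD4 minus PBS, horizontal axis), grouped by role. Filled points with lines are estimates with 95% intervals from all 12 tumours, and open circles are estimates without anti-CD4 3 and 4. All 4 IFIT genes lie right of 0 and both MX genes left of it, and the open circles lie left of the filled points for every member but Ifi27.

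The totals were 30.75 to 41.93 M counts in PBS and 34.45 to 62.06 M counts in anti-CD4 tumours. Cd4 itself checked the depletion: it was at 4.35 to 9.93 CPM (counts-per-million) in PBS tumours, at 0.618 to 2.13 CPM with anti-CD4, and it fell in all 21 alternatives as well (log2 fold change -2.26, SE 0.28, edgeR adjusted p = 0.00298). CPM are scaled by TMM, a normalisation of library size, throughout. Msln, the mesothelin gene of mesothelial cells, was at 92.6 to 155 CPM in the 12 tumours, while Krt18, Krt19 and Upk3b were too low to be tested. The library totals differed between the groups (exact permutation p = 0.039, two-sided). With the total in the edgeR model, 5 genes of the whole table were lower, 0 were higher (1197 at an unadjusted p under 0.05) and no member was called.

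The interferons themselves were almost without counts. Of 20 genes of alpha, beta, other type I and lambda interferons, none was high enough to be tested and 11 were listed at 0 in all 12 tumours, which allows up to 0.0135 CPM over the PBS group and 0.0111 CPM over the anti-CD4 group (3 counts each, counting error only). All 20 together had 93.1 counts in PBS tumours, of 216.5 M counts, and 99.8 in anti-CD4 tumours, of 278.4 M counts. Ifnb1, the beta interferon gene, had 1 and 5 counts. Whether interferon alpha counts are split correctly among near-identical family members cannot be read from these totals.

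The receptor genes were expressed in every tumour. Ifnar1 was at 102 to 124 CPM in PBS tumours and 104 to 121 CPM with anti-CD4 (log2 fold change -0.02, 95% interval within 1.5-fold), and Ifnar2 had a log2 fold change of -0.06 (SE 0.09). None of the 7 receptor and JAK-STAT genes passed. The smallest unadjusted p among them was that of Jak1, the kinase of the receptor, with a median of 269 CPM in PBS tumours and 319 CPM with anti-CD4 (log2 fold change 0.19, edgeR adjusted p = 0.0756).

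The IFIT proteins bind foreign RNA and block its translation. All 4 of their genes had positive log2 fold changes, here and in each of 21 alternative fits, and none passed. Ifit2 was at 27.2 CPM in its lowest, 28.9 in its median and 31.9 in its highest PBS tumour, and at 29.8, 32.0 and 43.3 CPM in anti-CD4 tumours. Its PBS values were tight and 3 of the 6 anti-CD4 tumours lay above all of them, with anti-CD4 3 far above the rest (log2 fold change 0.21, SE 0.08, adjusted p = 0.13). Ifit3b was at 4.27, 5.05 and 5.96 CPM in PBS tumours and 5.10, 6.13 and 11.2 CPM with anti-CD4 (0.39, SE 0.18, adjusted p = 0.174). The groups overlapped, and again anti-CD4 3 held the highest value. Ifit3 (0.31, SE 0.17) and Ifit1 (0.18, SE 0.15) gave similar estimates. The pair Ifit3 and Ifit3b share 61.8% and 54.1% of their 31-base words with each other, and how reads were divided between them is uncertain. Their sum, which does not depend on the split, was 13.8 ± 2.21 CPM in the control group and 17.5 ± 4.85 CPM after depletion (SD, n = 6 each). In anti-CD4 3 it was 26.8 CPM, against at most 18.1 CPM in the other anti-CD4 tumours and 16.9 CPM in PBS tumours.

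The MX proteins are dynamin-like GTPases that trap viral particles, and many inbred laboratory mice carry defective copies of their genes. Both genes had negative log2 fold changes here and in all 21 alternatives, opposite in sign to the IFIT genes. Mx1 was at 11.4, 14.4 and 17.9 CPM in its lowest, median and highest PBS tumour and at 8.87, 10.3 and 13.2 CPM in anti-CD4 tumours. The highest anti-CD4 values, in tumours 1 and 3, reached into the PBS range, and the other 4 lay below every PBS tumour. The log2 fold change was -0.41 (SE 0.13, edgeR adjusted p = 0.0713, exact permutation p = 0.0238 and adjusted over all genes 0.136). Over all 21 alternatives the adjusted p ran from 0.00367 to 0.527, and it passed in 4 of them: DESeq2, voom, and the fits without PBS 1 and without anti-CD4 1. Those 2 fits called 14.6% and 12.1% of all genes. Mx2, listed as a polymorphic pseudogene in GENCODE M21, gave an estimate of -0.35 (SE 0.16, adjusted p = 0.171).

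Because 2 genes of the same tumour share its library size, their ratio does not depend on scaling. The ratio of Ifit2 to Mx1, a pair chosen after the values were seen and therefore given with no test, was 1.78 to 2.55 in PBS and 2.26 to 3.42 in anti-CD4 tumours. The lowest anti-CD4 ratio belonged to tumour 1, and the other 5 anti-CD4 tumours, at 3.01 or more, lay above every PBS tumour. Anti-CD4 3, the tumour with the highest Ifit2, had a ratio of 3.33, close to the 3.41 and 3.42 of anti-CD4 5 and 6, whose Ifit2 was 31.6 and 30.5 CPM. The means of the 4 IFIT and the 2 MX genes contain Ifit2 and Mx1, and their contrast followed from that pair. It is thus not independent of the ratio and is also given with no test. Their log2 difference was 0.30 to 0.79 in PBS and 0.68 to 1.21 in anti-CD4 tumours, with 5 of the 6 above every PBS tumour.

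**Figure D2:**
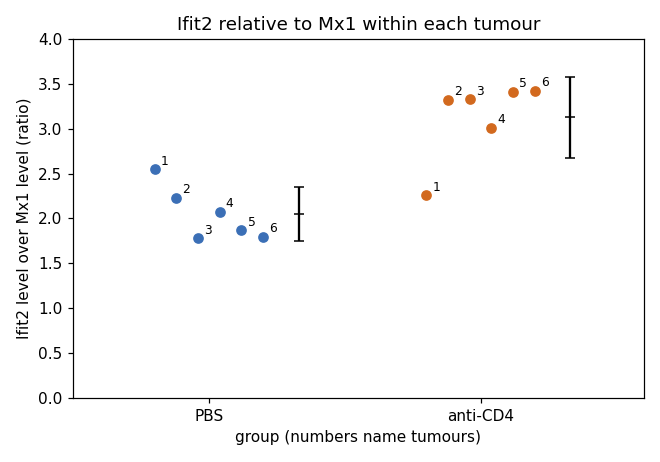
Ratio of the Ifit2 level to the Mx1 level in each tumour (vertical axis, no unit) by group, with tumour numbers beside the points and the mean ± SD of 6 tumours at the right of each group. All anti-CD4 tumours except number 1 lie above the PBS range of 1.78 to 2.55.

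The OAS enzymes make a second messenger that activates RNA decay, and the 6 genes of this family did not lean in a common direction, with 2 positive and 4 negative log2 fold changes and none passing. Oas2 was at 11.8, 17.2 and 21.1 CPM in PBS tumours and at 9.79, 12.4 and 17.9 CPM with anti-CD4. Anti-CD4 3 held the highest level of its group, inside the PBS range, and 3 of the other anti-CD4 tumours were below every PBS tumour (log2 fold change -0.38, SE 0.17, adjusted p = 0.156). Oasl2, which encodes an OAS-like protein, was at 36.3, 48.3 and 59.3 CPM in PBS tumours and at 32.9, 38.3 and 71.5 CPM with anti-CD4, where tumour 3 was above all others (-0.17, SE 0.20). Oasl1, a regulator of Irf7 translation, had a log2 fold change of 0.13, Oas3 of 0.11, Oas1a of -0.07 and Oas1g of -0.08. Oas1a shares 68.7% of its 31-base words with Oas1g, so only their sum is free of the split, and it was 25.4 ± 4.89 CPM in the control group and 24.2 ± 4.69 CPM after depletion (SD, n = 6 each).

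Among the sensors, Ddx58 (RIG-I) and Ifih1 (MDA5) detect viral RNA in the cytoplasm, Dhx58 (LGP2) tunes them, Zbp1 senses left-handed nucleic acid and starts cell death, and Eif2ak2 (PKR) halts translation. None of these 5 passed. Ddx58 was at 58.1, 70.1 and 77.1 CPM in PBS tumours and 61.4, 64.2 and 84.7 CPM with anti-CD4 (log2 fold change -0.02, SE 0.09, adjusted p = 0.89). Its groups overlapped, with anti-CD4 3 alone above the PBS range. Eif2ak2 varied least of all 36 members, by 1.25-fold from the lowest to the highest of the 12 tumours, with a 95% interval of -0.13 to 0.13. Zbp1 varied most, by 3.82-fold. It was at 14.7, 22.7 and 29.7 CPM in PBS, and in anti-CD4 tumours 1 to 6 at 12.4, 12.3, 34.5, 19.6, 9.60 and 9.04 CPM. The anti-CD4 group thus held both the highest value of all, in tumour 3, and 4 values below every PBS tumour (log2 fold change -0.45, SE 0.33, adjusted p = 0.38).

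Stat2, Irf9 and Irf7 carry the signal to the genes. Stat2 was at 50.9, 61.7 and 68.1 CPM in PBS tumours and at 42.3, 46.8 and 83.5 CPM with anti-CD4. Its pattern was that of Zbp1, with tumour 3 above and 4 anti-CD4 tumours below the whole PBS range (-0.17, SE 0.16, adjusted p = 0.499). Irf9, its partner, had a log2 fold change of -0.09 (SE 0.13) and Irf7, the factor that amplifies interferon production, one of -0.05 (SE 0.10).

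Isg15 is a ubiquitin-like modifier, Herc6 the ligase that attaches it in mice, and Usp18 the protease that removes it and dampens the receptor. Isg15 was at 7.78, 9.77 and 12.3 CPM in PBS tumours and 9.34, 11.2 and 17.9 CPM with anti-CD4 (0.32, SE 0.16, adjusted p = 0.205), with anti-CD4 2 and 3 above every PBS tumour. Herc6 was at 20.9, 24.1 and 29.6 CPM in PBS tumours and 18.4, 19.5 and 33.6 CPM with anti-CD4 (-0.15, SE 0.14, adjusted p = 0.515), and all anti-CD4 tumours but 3 and 4 were below the PBS range. The gene model Gm45193 overlaps Herc6 on the same strand and shares 12.7% of its 31-base words. Usp18 had a log2 fold change of 0.06 (SE 0.13).

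The last 13 members are effectors of other kinds, and none passed. Ifi27l2a, which encodes a small hydrophobic protein, had the largest positive log2 fold change of the 36. It was at 13.9, 24.1 and 29.4 CPM in PBS tumours and at 29.4, 31.4 and 39.5 CPM with anti-CD4. The groups touched without separating, since anti-CD4 3, here the lowest of its group, equalled PBS 1 to 3 digits and the other 5 anti-CD4 tumours lay above every PBS tumour (0.49, SE 0.15, edgeR adjusted p = 0.074, exact permutation p = 0.00433 and adjusted over all genes 0.0799). Over the 21 alternatives its adjusted p ran from 0.0192 to 0.475, and it passed with DESeq2, voom and without PBS 1. Per kilobase of exon it was also the most abundant member, at a mean of 50.4 CPM per kilobase in PBS and 70.7 in anti-CD4 tumours, followed by Bst2 (tetherin, which holds budding viruses at the membrane) at 33.3 and 31.5. Ifi27, its relative and neighbour on chromosome 12, had a log2 fold change of 0.07 (SE 0.07).

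Slfn5, a Schlafen family member, was at 56.8, 62.7 and 77.3 CPM in PBS tumours and 51.6, 63.1 and 96.8 CPM with anti-CD4, with its highest value in anti-CD4 4 and overlapping groups (0.07, SE 0.15, adjusted p = 0.776). Slfn5os lies on the opposite strand, and without a stated strand setting reads of the pair cannot be told apart. Rsad2 (viperin) and its neighbour Cmpk2, a nucleotide kinase, had log2 fold changes of 0.16 and 0.05. The nuclease Isg20, the TRIM protein Trim30a, the chaperone Rtp4 and Ifi44 had estimates of 0.11, 0.09, 0.02 and 0.05. Bst2, the ADP-ribosyltransferase Parp12, Ifi35 and the pro-apoptotic Xaf1 had estimates of -0.08, -0.08, -0.12 and -0.22.

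**Figure D3:**
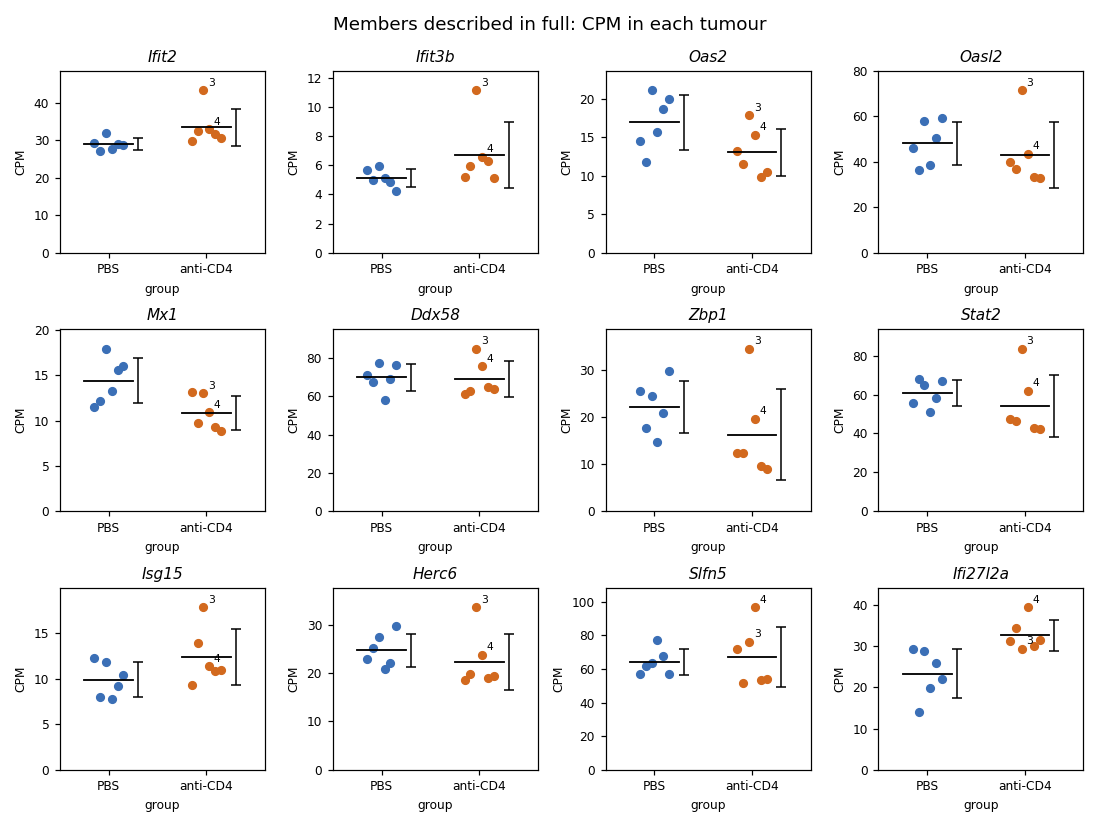
Level in CPM (vertical axes from 0) of the 12 members described in full, 1 point per tumour, with a bar at the mean and the SD of 6 tumours at its right. The numbers 3 and 4 mark those anti-CD4 tumours, and tumour 3 is the highest of its group in 9 of the 12 panels.

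The members varied among single tumours. From the lowest to the highest of the 12 tumours the members varied by a median of 1.90-fold. The median size of the log2 fold change between groups was 0.12 on the log2 scale (0.16 over all genes). A range over tumours and a difference between groups are unlike measures, so these values are not a comparison. Of the 36 members, 27 had their highest level of all 12 tumours in anti-CD4 3, whereas 5.89% of all tested genes did. In the same tumour 27 members lay above every PBS tumour, against 15.7% of all genes. At the other end, anti-CD4 5 and 6 each had 15 members below every PBS tumour, and 19.7% and 23.3% of all genes lay there. Within the PBS group, PBS 3 held the highest level of 22 members, and PBS 2 and 4 the lowest of 13 and 16. Shares over all genes were not counted within the group. Over all 12 tumours PBS 3 was the highest for 3.73% of all tested genes, and PBS 2 and 4 the lowest for 7.3% and 14.9%. The members spread more among tumours than genes of like abundance did. The median SD of log2 CPM was 0.23 in PBS and 0.30 in anti-CD4 tumours for the members, and 0.14 and 0.12 for all 9104 tested genes with a mean of 5 to 100 CPM over the 12 tumours, the range that holds all 36 members. The SD was larger in anti-CD4 than in PBS tumours for 24 of 36 members (66.7%) and for 41.9% of all tested genes.

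**Figure D4:**
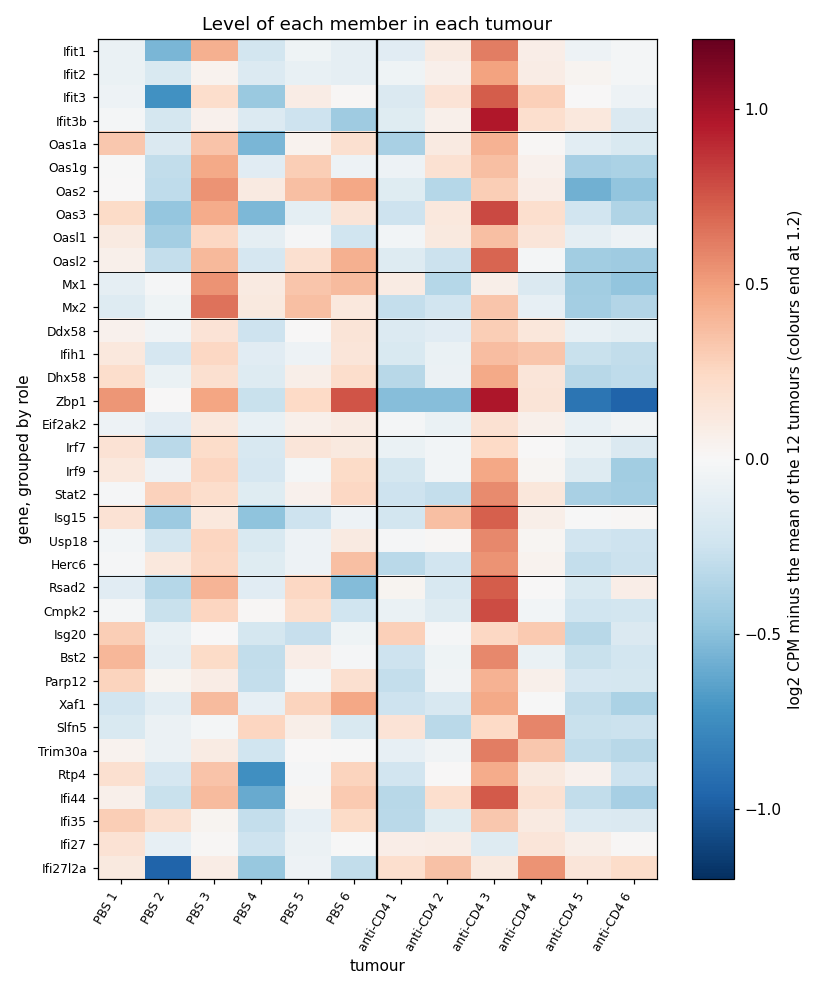
Level of each member (rows, grouped by role) in each tumour (columns) as log2 CPM minus the mean of the 12 tumours. Red is above and blue below the mean, and the column of anti-CD4 3 is the reddest, with 27 of the 36 highest values.

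Markers of other cells moved with these tumours, and their part in the results was not tested. The summed level of 9 T cell markers, Cd4 among them, was 24.9 to 54.0 CPM in controls, 21.3 and 33.2 CPM in anti-CD4 3 and 4, and 6.93 to 13.4 CPM in the other anti-CD4 tumours, and 3 of the 9 fell. That of 6 NK cell markers (Klra8 at 0 in all 12 tumours) was 9.66 to 27.0 CPM in controls, 11.99 and 6.21 CPM in anti-CD4 3 and 4, and 2.89 to 5.11 CPM in the others, and 1 of 5 tested fell. That of 6 neutrophil markers was 16.2 to 30.9 CPM in controls, 30.4 and 25.6 CPM in anti-CD4 3 and 4, and 9.08 to 14.6 CPM in the others, with no call among 4 tested. Csf3r and Cxcr2 carried this sum, and S100a8, S100a9, Ly6g and Retnlg reached at most 1.16 CPM in any tumour. The level in tumours 3 and 4 was thus above that of the other anti-CD4 tumours for each of these 3 lists. The summed level of 10 macrophage and monocyte markers, at 1702 to 2005 CPM in the anti-CD4 tumours and 1727 to 2930 in PBS, was carried by Lyz2, Csf1r and Mrc1 and did not set tumours 3 and 4 apart. Of the 10, only Ly6c2, Ccr2 and Itgam were higher in both tumours 3 and 4 than in each other anti-CD4 tumour, with Ccr2 at 166 and 157 CPM against 106 to 144 CPM. The others of this list were not, with Cd68 at 49.3 and 45.4 CPM against as much as 77.9 CPM. Of 9 markers of plasmacytoid dendritic cells, 3 were likewise higher in both tumours. The summed level of 6 fibroblast markers was 11890 to 21790 CPM in controls and 21900 to 27750 CPM after depletion. Col3a1 and Col1a1, neither of them called, carried this sum. The 2 markers that rose, Lum and Pdgfra, reached at most 91.0 and 665 CPM in any tumour. Plasmacytoid dendritic cells, known for interferon production, carry Bst2, and their lectin Siglech fell from 2.24 to 6.83 CPM in PBS to 1.04 to 1.69 CPM in anti-CD4 tumours (log2 fold change -1.41, edgeR adjusted p = 0.0186). Of 8 tested markers of these cells 5 fell and Tcf4 rose. Siglech was not called with the library total as covariate, with the replicate block or without anti-CD4 5 or 6 (highest adjusted p = 0.161). Tcf4 was called in 10 of 21 alternatives. At 339.6 CPM or more in every tumour, it made up most of the summed level of the 9 markers, which was 399.9 to 431.5 CPM in PBS tumours and 433.6 to 488.5 CPM with anti-CD4.

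Without anti-CD4 3 and 4, the members leaned downwards. There were then 8 positive and 28 negative log2 fold changes, with a median of -0.17 (over all genes -0.02), and 14 members were lower at an unadjusted p under 0.05, against 14.3% of all genes. In this fit 4 members fell, where 3.86% of all genes were called lower and 2.07% higher. Zbp1 fell by 1.03 on the log2 scale (edgeR adjusted p = 0.011), Oas2 by 0.59 (0.0415), Stat2 by 0.44 (0.0127) and Herc6 by 0.37 (0.0417). The 4 remaining anti-CD4 tumours lay below all PBS tumours in Zbp1 (9.04 to 12.4 CPM), Stat2 (42.3 to 47.5 CPM), Herc6 (18.4 to 19.7 CPM) and Mx2 (4.04 to 4.57 CPM), and overlapped in Oas2. In Ifi27l2a they lay above all PBS tumours (30.0 to 34.6 CPM). These are 4 members lower and 1 higher, where 4.48% of all genes separated lower and 3.21% higher. The IFIT genes, Isg15 and Ifi27l2a had positive estimates, at 0.04 to 0.13, 0.19 and 0.45, and none of them passed. Anti-CD4 3 and 4 were left out because earlier results of these data had set them apart. Anti-CD4 3 also held the highest level of 27 of the 36 members, so a shift downwards without it was built in. The p-values and separations of this fit are therefore no test of the members. This fit describes the other 10 tumours and does not replace that of all 12.

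The 23 genes listed for the interferon gamma response ranged more widely among tumours. All were tested, and 23 had negative log2 fold changes, with a median of -0.42. Of the 23 only Irf8, a transcription factor of dendritic cells and macrophages, fell in edgeR with all 12 tumours (2.33% of all genes were lower). Irf8 went from a median of 52.3 CPM in PBS to 28.8 CPM in anti-CD4 tumours (log2 fold change -0.80, SE 0.17, edgeR adjusted p = 0.0288). The call was lost with the replicate block, with the library total as covariate and without PBS 2, PBS 6, or anti-CD4 2, 5 or 6, where the adjusted p reached 0.271. On all 12 tumours DESeq2, at 13.9% of all genes called, called Irf8 and Ciita lower. Voom, at 33.7%, called Irf1, Irf8, Ciita, Cxcl9, Gbp4, Gbp5, Gbp6, Iigp1, Tgtp2, Ido1, Cd274, Serpina3g and Ubd lower. Without both anti-CD4 3 and 4, 19 of the 23 fell (3.86% of all genes were lower), and their list had a median of -1.37 on the log2 scale. Anti-CD4 3 and 4 had the highest median centred levels of this list in their group, at 1.41 and 0.48. A fall without them was thus built in and is no test of the list. In that fit 4 of the 36 type I members fell, as given above. Irf1, the first factor induced by interferon gamma, was at 54.6 to 99.6 CPM in PBS tumours and 40.6 to 109 CPM with anti-CD4 (-0.38, SE 0.25, adjusted p = 0.33). The highest of 12 tumours was anti-CD4 3 for 18 of the 23 genes (5.89% of all tested genes) and the lowest was anti-CD4 6 for 17 (10.8%). The lowest levels of the type I members were less gathered in 1 tumour, with 9 of 36 in anti-CD4 6 and 8 each in PBS 2 and PBS 4. PBS 2 and PBS 4 were the lowest for 7.3% and 14.9% of all tested genes. The median centred level of the list ran from -1.26 in anti-CD4 6 to 1.41 in anti-CD4 3, and that of the 36 type I members from -0.23, in both anti-CD4 5 and 6, to 0.46 in anti-CD4 3. Among PBS tumours the gamma list was lowest in PBS 4 (-0.63) and highest in PBS 6 (0.84), and the type I members were lowest in PBS 4 (-0.20) and highest in PBS 3 (0.25).

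**Figure D5:**
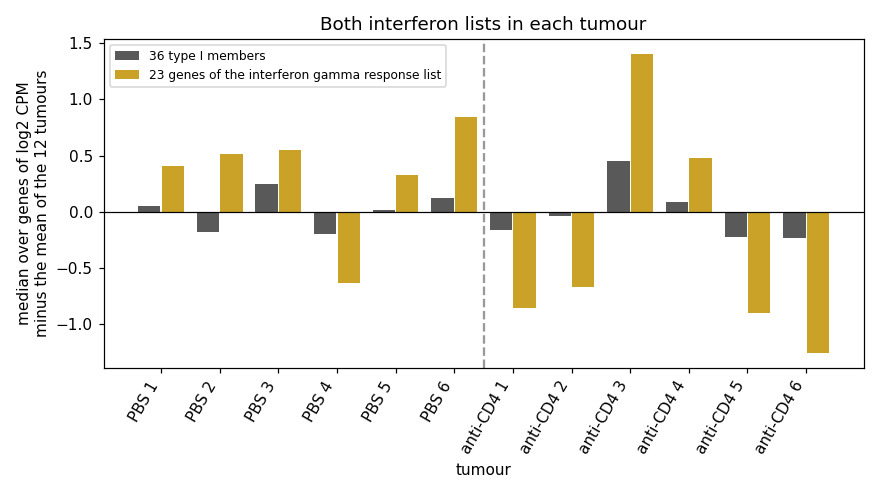
Median over genes of log2 CPM minus the mean of the 12 tumours (vertical axis), for the 36 type I members and the 23 genes of the interferon gamma list in each tumour. Both are highest in anti-CD4 3 (0.46 and 1.41) and lowest in anti-CD4 6 (-0.23 and -1.26), which the type I median of anti-CD4 5 nearly equals.

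The other pathway lists gave no call in edgeR with all 12 tumours. On the same tumours DESeq2, at 13.9% of all genes called, called Unc93b1 and Sp110 lower and Jak1 higher. Voom, at 33.7% of all genes, called 10 genes of these lists lower, with Tlr9, Socs1 and Sp110 among them, and Jak1 higher. Of 16 genes that lead to interferon production none passed in edgeR. At an unadjusted p under 0.05, 4 of them were lower and 0 higher, against 14.7% and 13.4% of all genes. The smallest p was that of Unc93b1, which carries nucleic acid sensing Toll-like receptors to endosomes, at 74.1 to 134 CPM in PBS tumours and 60.1 to 78.2 CPM with anti-CD4 (log2 fold change -0.51, SE 0.16, adjusted p = 0.0713). Tlr9, one of those receptors, had an estimate of -0.64 and an adjusted p = 0.124, while the adaptors Mavs and Tmem173 (STING) and the DNA sensor Cgas had estimates of 0.10, -0.07 and -0.07. Of 7 negative regulators none passed, with Socs1, which blocks the Jak kinases, at -0.34 (SE 0.13, adjusted p = 0.125). Of 24 further interferon stimulated genes none passed either, with 10 positive and 14 negative estimates and a median of -0.06. Sp110, a nuclear body protein, had the smallest p (-0.53, SE 0.16, adjusted p = 0.0687). Without both anti-CD4 3 and 4, Sp110 and 6 others of the 24 fell, as did 3 of the 16 and 1 of the 7 negative regulators. In that fit, a description of the other 10 tumours as said above, 3.86% of all genes were called lower and 2.07% higher.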

How the data were processed

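Tumour RNA was sequenced as paired 100-base reads after removal of ribosomal and globin RNA, per the labels. According to the submitters' processing notes the tools and build were bcl2fastq 2.20.0.422, kallisto and GRCm38.p6. No source used here gives the annotation, strand setting or the step to genes. The deposited values are the authors' estimated counts by gene symbol, 35.7% to 37.9% of them not whole in a tumour. Counts were rounded, filtered with filterByExpr, scaled by TMM and tested with edgeR 4.0.16 (R 4.3.3; robust quasi-likelihood F test, no covariate, Benjamini-Hochberg over 17940 genes). The fit was also run on simulated counts drawn separately for each gene and tumour, so that run held no tumour that stands apart in many genes. Standard errors are the log2 fold change over the square root of F, and 95% intervals use them. Log2 CPM used a prior count of 2. The exact two-sided permutation test covers all 924 assignments of the 12 tumours (smallest p 0.00216), adjusted over all genes. Gene names, coordinates and 31-base words (either strand) come from GENCODE M21, promoters from RefSeq GRCm38.p6. The 26 rows whose names had become dates hold 0.227% of counts. Counts of paralogs and overlapping genes are uncertain: 15 members share 5% or more of their words with another gene. Tumours of a group differed far beyond sampling noise (chi-square per degree of freedom 8.01 to 61.1 over 30 pairs).

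Alternatives were RLE and upper quartile scaling, DESeq2 1.42.0, limma 3.58.1 voom, no filter, 1 CPM in 6 tumours, a replicate block, the library total as covariate, and leaving out tumours. All 36 members are named; those given in full are, in each of 7 roles, the member with the highest mean CPM and that with the smallest p, and the 3 highest and 3 lowest fold changes. From each pathway list the gene with the smallest p is named, with Ifnb1, Ifnar1, Ifnar2, Irf1, Irf8 and Cd4. A further gene of this rule is not reported here. Siglech, Tcf4, Klra8, Lyz2, Csf1r, Mrc1, Cd68, Ly6c2, Ccr2, Itgam, Msln, Krt18, Krt19, Upk3b, Tlr9, Mavs, Tmem173 and Cgas were named after their values were seen. So were Csf3r, Cxcr2, S100a8, S100a9, Ly6g, Retnlg, Col1a1, Col3a1, Lum and Pdgfra, and the further genes of the gamma list called by DESeq2 or voom. Members and lists were chosen with earlier results of these data known. The alternatives for pathway lists were added after seeing the data.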

Additional observations from a re-analysis of the deposited data

Results flagged for a closer look

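In 8 of the 72 sets of 6 tumours examined (36 members in each group), 1 tumour stood apart from the other 5 by a gap that took more of the whole range than the Dixon limit at the 95% level allows. Chance alone gives about 1 such set in 20, and sets of related genes in the same tumours are not independent. All 8 were anti-CD4 tumours, and in each the highest value was that of anti-CD4 3. The gap was 0.666 of the range for Ifit1, 0.732 of the range for Ifit2, 0.67 of the range for Ifit3b, 0.642 of the range for Oasl2, 0.667 of the range for Usp18, 0.707 of the range for Rsad2, 0.799 of the range for Cmpk2 and 0.746 for Bst2. No set of PBS tumours passed the limit. Gaps and ranges were taken on log2 CPM, and the number of sets that pass depends on that scale.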

How the results depend on the processing

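Without a call in the edgeR fit of all 12 tumours (6 members at an unadjusted p under 0.05), the members called were 1 higher and 1 lower with DESeq2, 1 higher and 5 lower with limma voom, and 0 higher and 4 lower without both anti-CD4 3 and 4. Leaving out single tumours gave 0 to 1 higher and 0 to 1 lower, with Mx1 and Ifi27l2a called without PBS 1 and Mx1 without anti-CD4 1. The member median ranged from -0.17 to 0.03 over all 21 alternatives. Of the 36 members, 21 kept their sign in all 21 and 15 changed it in at least 1, none of these 15 with a call. Genes called over the whole table, 529 higher and 418 lower, depended strongly on the setting. They were 179 and 325 with upper quartile scaling (35.5% of calls higher, against 55.9%), 1337 and 1157 with DESeq2, 2848 and 3200 with voom, 272 and 251 without a filter, and 0 and 5 with the library total as covariate. Without both anti-CD4 3 and 4 they were 378 and 705. Leaving out single tumours gave 29 to 1160 higher and 31 to 1480 lower: without PBS 1, 2, 3, 5 and 6 in turn, 1160 and 1480, 120 and 119, 67 and 94, 99 and 153, and 91 and 65 and, for anti-CD4 1 to 6 in turn, 1044 and 1153, 29 and 33, 320 and 369, 295 and 358, 35 and 31, and 54 and 36. The cause was not tested. Of the 77 tested pathway genes 1 was lower, and alternatives chosen after seeing the data gave 1 higher and 4 lower with DESeq2, 1 higher and 23 lower with voom, 31 lower without both anti-CD4 3 and 4, 0 lower with the block or the covariate, and 0 to 1 higher and 0 to 4 lower without single tumours. The replicate block, with the number of a tumour as a factor, gave 19 higher and 14 lower genes and no member. Same-numbered tumours correlated at -0.409 to 0.229 in their deviations from the group means. No label says that the numbers pair tumours, and these correlations alone cannot settle it.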
